A study of Mus musculus with 21 samples.

Results

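Oligodendrocytes wrap axons in myelin and rely on a specialised cytoskeleton to do so. The genes described here encode 7 parts of that cytoskeleton, which were Anln, Sept2, Sept4, Sept7, Sept8, Ermn and Tppp, and they were chosen by symbol. They correspond to 8 gene rows among the 25127 of the deposited per-library values, because Sept2 has 2 overlapping gene models. RNA came from the whole spinal cord of 21 C57BL/6 mice, each library from its own animal. Tardbp, which encodes the RNA-binding protein TDP-43, had been deleted with Cnp-Cre, a recombinase driven from the Cnp locus in cells of the oligodendrocyte lineage. Knockout mice (cKO) were Cnp-Cre; Tardbp-fl/fl, heterozygous mice (cHET) were Cnp-Cre; Tardbp-fl/+, and controls were Tardbp-fl/fl without Cre. Both Cre-carrying genotypes therefore share the Cre allele, which the controls lack, and all 3 carry at least 1 floxed allele. At day 21 (P21) each genotype had 4 mice, 2 female and 2 male. At about day 60 (P60) each had 3 mice, and there the cKO and cHET mice were males of 60 to 65 days while the controls were females of 74 days. At P60, genotype differences from control thus cannot be told apart from differences of sex and age.

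Septins are GTP-binding proteins that assemble into filaments under the plasma membrane. In central myelin, SEPT2, SEPT4, SEPT7 and SEPT8 form filaments along the innermost, non-compacted layer next to the axon, together with the scaffold protein anillin, and mice that lack these filaments develop myelin outfoldings. SEPT7 is the subunit that septin complexes generally require, whereas SEPT4 belongs to the SEPT2 group and SEPT8 to the SEPT6 group, whose members can replace each other within a complex. Anillin, encoded by Anln, is also known from the contractile ring of dividing cells. Ermin, encoded by Ermn, binds actin filaments and is made by mature oligodendrocytes. TPPP nucleates and stabilises microtubules in oligodendrocyte processes.

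All values are normalized scaled reads per base, a signal that corrects for gene length and was scaled by the authors within each age. Per library it summed to between 26.9 M and 29.2 M at P21 and between 12.5 M and 13.8 M at P60 (M for 1e6), and since the values are normalized the read depth behind them is unknown. P21 and P60 libraries were made with different kits, so levels are not compared between ages. For the change with age, the kit, the sexes of the mice and the age cannot be told apart. Mitochondrial genes took 6.4% to 8.12% of the signal at P21. At P60 the range was 14.6% to 17.9% for cKO, 11.4% to 16.2% for cHET and 10.2% to 16.1% for controls, with the highest values outside cKO in cHET 3 (16.2%) and control 1 (16.1%). The other cHET libraries had 11.6% and 11.4% and the other controls 10.2% and 13.1%. Tardbp itself ranged from 1639 to 1880 in P21 cKO cords, against 2030 to 2236 in cHET and 2155 to 2415 in control cords, with a log2 change of -0.29 ± 0.06 against cHET (SE; adjusted p = 0.0025) and -0.37 ± 0.06 against control (adjusted p = 0.00033). At P60 it ranged from 783 to 831 in cKO cords, from 906 to 932 in cHET cords and from 828 to 937 in control cords, so that cKO lay below cHET and overlapped control. The P60 change passed against cHET (-0.20 ± 0.06, adjusted p = 0.040) but not against control (-0.14 ± 0.06, adjusted p = 0.14). The call against cHET ended when any single P60 cKO or cHET library, or P60 control 2, was left out (adjusted p = 0.057 to 0.11) and in the authors' deposited table (q = 0.063). In whole cord, fewer cells of a type and less RNA per cell cannot be told apart. Markers of myelin and mature oligodendrocytes were abundant in every library, with a summed level of 324902 or more.

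The promoter windows of the members that fell furthest at both ages, Anln and Ermn, and of Sept8, are shown because they hold different sets of motifs. Each is 300 bases long, from 250 before the start to the first 50 transcribed bases, from RefSeq on GRCm38.p6, and all 7 members matched, with 13 windows among 32851. The Anln window is chr9:22389157-22389456 on the minus strand, the Ermn window chr2:58052815-58053114 on the minus strand, and the Sept8 window, 1 of 2, chr11:53519486-53519785 on the plus strand. Capitals mark matches to the motifs searched on both strands.
Anln: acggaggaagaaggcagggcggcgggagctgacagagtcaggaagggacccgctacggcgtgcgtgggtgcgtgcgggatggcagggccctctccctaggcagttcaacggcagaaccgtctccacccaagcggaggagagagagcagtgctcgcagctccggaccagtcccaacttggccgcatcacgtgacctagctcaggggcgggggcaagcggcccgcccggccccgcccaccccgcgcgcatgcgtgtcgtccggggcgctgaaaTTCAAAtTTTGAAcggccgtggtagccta
Ermn: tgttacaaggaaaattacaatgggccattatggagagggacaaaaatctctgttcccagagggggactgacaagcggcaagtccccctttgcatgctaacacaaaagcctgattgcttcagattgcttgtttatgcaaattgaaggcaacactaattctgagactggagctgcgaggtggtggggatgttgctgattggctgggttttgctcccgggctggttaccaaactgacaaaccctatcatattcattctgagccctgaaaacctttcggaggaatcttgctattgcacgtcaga
Sept8: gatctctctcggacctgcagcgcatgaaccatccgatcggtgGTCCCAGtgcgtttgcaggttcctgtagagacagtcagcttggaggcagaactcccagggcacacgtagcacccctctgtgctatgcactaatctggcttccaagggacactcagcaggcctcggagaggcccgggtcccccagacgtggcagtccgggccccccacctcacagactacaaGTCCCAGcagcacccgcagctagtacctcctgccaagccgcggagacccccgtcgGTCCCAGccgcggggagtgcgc

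The motifs searched were CTGGNAC, bound by the myelin transcription factor MYRF, ACAAAG, bound by SOX factors such as SOX10, and TTTGAA, the CHR element of cell cycle promoters. CTGGNAC was found in 19.3% of all windows, ACAAAG in 18.7% and TTTGAA in 17.9%. The Anln window held 2 matches to TTTGAA, one on each strand and 1 base apart, 22 and 29 bases after the start. The Sept8 window held 3 matches to CTGGNAC, all on the minus strand, 208 and 27 bases before the start and 29 bases after it. Each read CTGGGAC on that strand, and whether MYRF binds this form was not tested. The Ermn window held none of the 3 motifs, and neither did those of Tppp and Sept2. One of the 4 Sept4 windows held ACAAAG 2 times, and the Sept7 windows held ACAAAG 1 time and TTTGAA 2 times. No match overlapped another. These are letter matches only and say nothing of binding in the cord.

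cKO against cHET at P21 asks what removal of the remaining Tardbp allele does, since both genotypes carry Cre. The members moved in different directions. Anln and Ermn fell most, Sept4, Tppp and Sept8 fell by less, and the more abundant of the 2 Sept2 gene models rose. In counts, 5 of 8 gene rows fell and 1 rose (adjusted p under 0.05, limma, Benjamini-Hochberg over all tested genes), where 9.97% of all 17989 tested genes fell and 12.6% rose. The median log2 change over the rows was -0.25, against -0.01 over all genes. The cKO libraries lay wholly below the cHET libraries for 5 rows (9.87% of all genes) and wholly above for 2 (12.7%).

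At P60 the same comparison gave larger decreases. Again 5 of 8 rows fell (11.5% of 16833 tested genes fell), and 2 rose (13.4% rose), Sept7 and the more abundant Sept2 model. The median over the rows was -0.57, against 0.00 over all genes. All 5 rows that fell had cKO libraries wholly below cHET libraries (18.9% of all genes) and both that rose had them wholly above (20.6%). Without cHET 3 and control 1, a comparison added after the data were seen, 7 rows were still called.

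**Figure D1:**
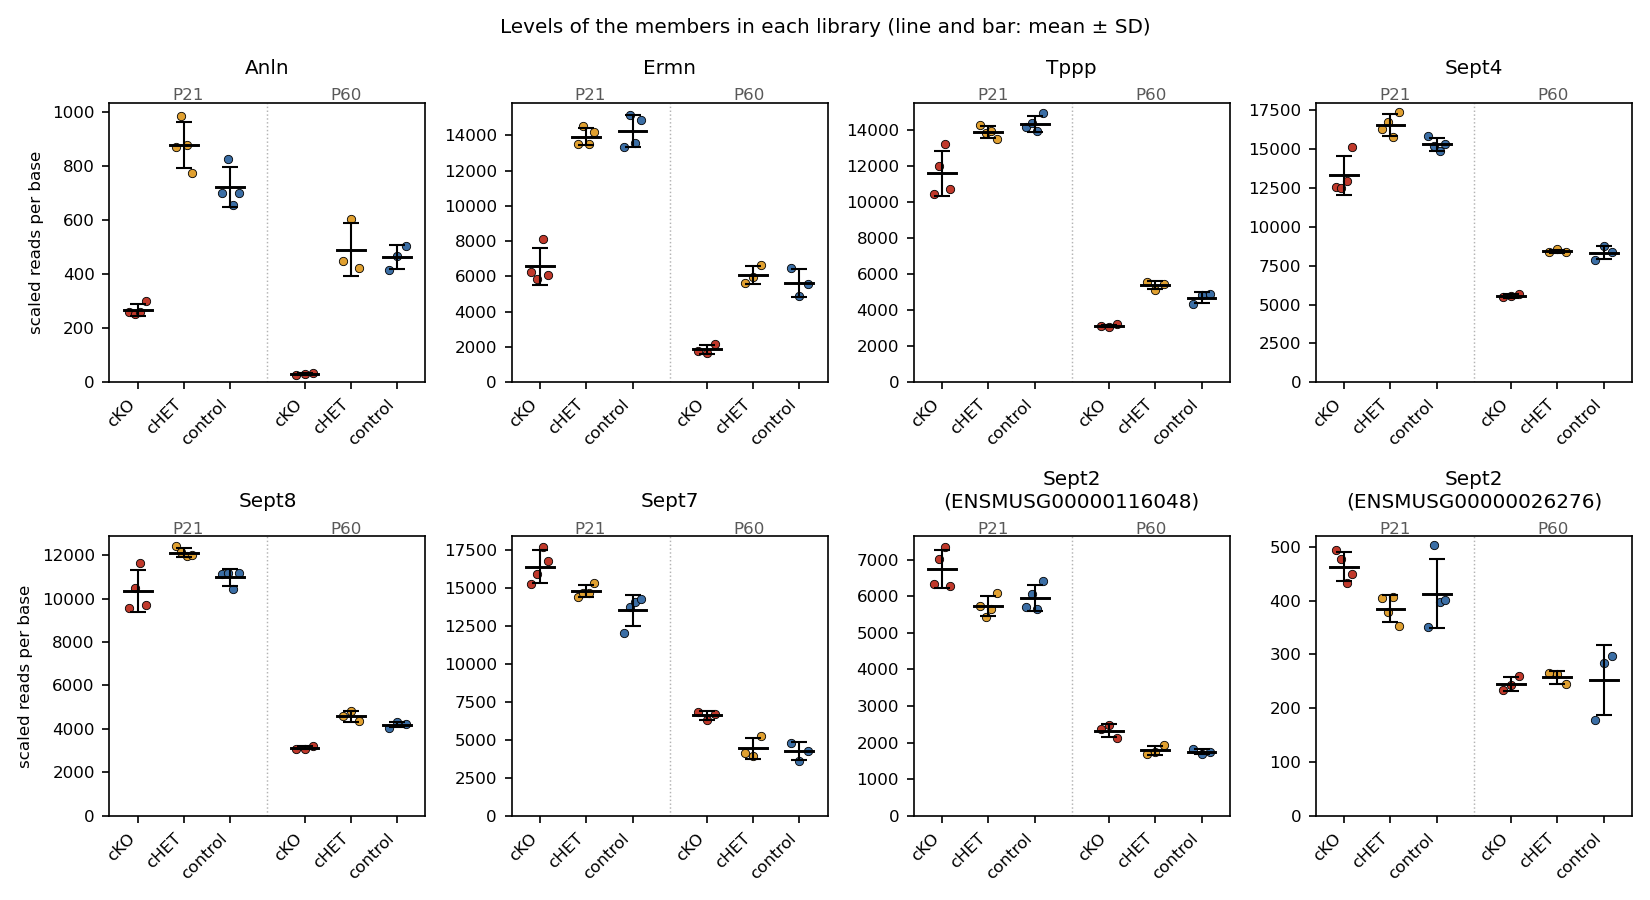
Level of each gene row in each library, in normalized scaled reads per base on linear axes from 0, for cKO (red), cHET (orange) and control (blue) at P21 (left of the dotted line, 4 mice each) and P60 (right, 3 mice each). Points are libraries, lines and bars the mean ± SD, and P21 and P60 were scaled separately. The 3 P60 cKO values of Anln, from 27.8 to 34.1, lie close to the axis, far below cHET and control.

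Anln (ENSMUSG00000036777, GRCm38 chromosome 9, 22332012 to 22389188) had the largest change of the members at both ages. At P21 it measured 260, 251, 259 and 301 in cKO cords, against 870, 985, 877 and 774 in cHET cords and 699, 826, 656 and 699 in control cords. No cKO library came near either other group. The log2 change against cHET was -1.71 ± 0.09 (SE; adjusted p = 9.9e-09), a 3.27-fold lower level, and against control -1.43 ± 0.09 (adjusted p = 6e-08). By size the decrease against cHET ranked 99th from the lowest of 17989 tested genes.

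At P60 Anln measured 27.8, 29.6 and 34.1 in cKO cords, against 448, 602 and 421 in cHET cords and 416, 467 and 505 in control cords. It was 15.7-fold lower than in cHET (-3.97 ± 0.14, adjusted p = 2.8e-08) and 14.9-fold lower than in control (-3.90 ± 0.14, adjusted p = 2.7e-08). That decrease ranked 15th from the lowest of 16833 genes against each of cHET and control, which share the cKO libraries. The 3 cKO libraries, with a coefficient of variation of 10.6%, were no more variable in relative terms than the cHET libraries, at 19.9%. In the authors' deposited table the P60 changes were likewise -3.97 against cHET and -3.90 against control. Both rest on the same values, so this is no independent check.

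Ermn (ENSMUSG00000026830, chromosome 2, 58045113 to 58052864) followed in size. At P21 it measured 6272, 5827, 8119 and 6096 in cKO cords, against 13527, 14501, 13486 and 14194 in cHET cords and 13354, 15169, 13587 and 14837 in control cords. The cKO library 3 was the highest of its group and still lay below every library of the other groups. Its log2 change was -1.09 ± 0.09 against cHET (adjusted p = 4.2e-07) and -1.12 ± 0.09 against control (adjusted p = 3e-07). At P60 it measured 1791, 1632 and 2153 in cKO cords, against 5635, 5991 and 6619 in cHET cords and 6456, 4890 and 5574 in control cords. It was 3.29-fold lower than in cHET (-1.72 ± 0.12, adjusted p = 1.7e-06) and 3.03-fold lower than in control (-1.60 ± 0.12, adjusted p = 2.5e-06). The 3' end of Ermn overlaps the last bases of Galnt5 on the opposite strand, and whether counting used strand is not given in the sources used here.

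Tppp (ENSMUSG00000021573, chromosome 13, 74009407 to 74035753), the microtubule member, fell modestly at P21 and further at P60. At P21 it measured 10476, 12007, 13220 and 10751 in cKO cords, against 14278, 13871, 13967 and 13504 in cHET cords and 14175, 14411, 13940 and 14947 in control cords. The cKO values spread widely, but all lay below the other groups. The log2 change was -0.27 ± 0.07 against cHET (adjusted p = 0.0086) and -0.31 ± 0.07 against control (adjusted p = 0.0025). At P60 Tppp measured 3102, 3068 and 3215 in cKO cords, against 5552, 5129 and 5453 in cHET cords and 4372, 4839 and 4911 in control cords. It was 1.72-fold lower than in cHET (-0.78 ± 0.06, adjusted p = 3.9e-06) and 1.50-fold lower than in control (-0.59 ± 0.06, adjusted p = 3.4e-05).

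Sept4 (ENSMUSG00000020486, chromosome 11, 87568903 to 87590539) encodes a septin of the SEPT2 group that is abundant in myelin. At P21 it measured 12600, 12531, 12966 and 15163 in cKO cords, against 16290, 16754, 15786 and 17405 in cHET cords and 15873, 15211, 14866 and 15359 in control cords. The cKO library 4 stood apart from the other 3 and reached into the control range, but not into that of cHET. The log2 change of Sept4 was -0.32 ± 0.06 against cHET (adjusted p = 0.0016) and -0.21 ± 0.06 against control (adjusted p = 0.021). The call against control ended without cKO 1 (adjusted p = 0.057), cKO 2 (0.070), cKO 3 (0.050) or control 1 (0.059). At P60 Sept4 measured 5475, 5526 and 5701 in cKO cords, against 8408, 8558 and 8356 in cHET cords and 7895, 8757 and 8359 in control cords. It was 1.52-fold lower than in cHET (-0.60 ± 0.05, adjusted p = 1.2e-05) and 1.50-fold lower than in control (-0.58 ± 0.05, adjusted p = 1.5e-05). Its first bases overlap Gm11492 on the same strand.

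Sept8 (ENSMUSG00000018398, chromosome 11, 53519257 to 53549565) encodes a septin of the SEPT6 group. At P21 it measured 9544, 10461, 11638 and 9697 in cKO cords, against 12395, 12121, 11950 and 12002 in cHET cords and 11105, 11183, 10415 and 11174 in control cords. The cKO values lay below cHET and overlapped control. The log2 change was -0.23 ± 0.06 against cHET (adjusted p = 0.011), whereas that against control, -0.09 ± 0.06, did not pass (adjusted p = 0.30) unless cKO 3 was left out (-0.15, adjusted p = 0.047). At P60 Sept8 measured 3094, 3095 and 3229 in cKO cords, against 4591, 4844 and 4341 in cHET cords and 4059, 4298 and 4223 in control cords. All cKO libraries lay below both other groups. It was 1.46-fold lower than in cHET (-0.55 ± 0.06, adjusted p = 3.5e-05) and 1.34-fold lower than in control (-0.42 ± 0.06, adjusted p = 0.00026).

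Sept7 (ENSMUSG00000001833, chromosome 9, 25252439 to 25308571), the obligate subunit, did not follow Sept4 and Sept8. At P21 it measured 15236, 15940, 17700 and 16775 in cKO cords, against 14428, 14644, 14684 and 15346 in cHET cords and 12006, 13758, 14064 and 14259 in control cords. The cKO values overlapped cHET in 1 pair of libraries and lay above every control. The change of 0.15 ± 0.06 against cHET did not pass (adjusted p = 0.10), but it did after quantile normalization (0.21, adjusted p = 0.019). Against control Sept7 rose by 0.28 ± 0.06 (adjusted p = 0.0039). At P60 it measured 6860, 6282 and 6712 in cKO cords, against 4125, 3955 and 5226 in cHET cords and 4825, 3626 and 4282 in control cords. It was 1.50-fold higher than in cHET (0.59 ± 0.12, adjusted p = 0.0037) and 1.57-fold higher than in control (0.65 ± 0.12, adjusted p = 0.0020).

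The highest P60 Sept7 values outside cKO were in cHET 3 and control 1, the libraries with the highest mitochondrial shares outside cKO. Without both, Sept7 was 0.71 higher in cKO than in cHET (adjusted p = 0.00024) and 0.75 higher than in control (adjusted p = 0.00018) on the log2 scale. The part of mitochondrial share in the Sept7 values was not tested.

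Sept2 encodes a septin of the group that includes SEPT4, and its 2 gene models overlap on the plus strand of chromosome 1. The more abundant, ENSMUSG00000116048 (93478993 to 93509733), carried most of the signal. The less abundant, ENSMUSG00000026276 (93478964 to 93510260), spans the other and held 5.46% to 7.67% of their sum at P21 and 8.88% to 14.4% at P60, and how reads were split between them is uncertain. At P21 the more abundant model measured 6336, 7025, 7354 and 6292 in cKO cords, against 5721, 5444, 5662 and 6098 in cHET cords and 5698, 6057, 5642 and 6415 in control cords. All cKO values exceeded cHET, and they overlapped control. It rose by 0.23 ± 0.06 on the log2 scale against cHET (adjusted p = 0.015), a call that ended without cKO 2 or without cHET 2 (adjusted p = 0.050 each). Against control the change was 0.18 ± 0.06 (adjusted p = 0.048), and it passed in only 4 of 12 fits that left out 1 library.

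That call against control ended without cKO 2 (adjusted p = 0.12), cKO 3 (0.14), cHET 1 (0.062), cHET 2 (0.054), cHET 3 (0.062), control 1 (0.12), control 2 (0.076) or control 3 (0.13). At P60 the more abundant model measured 2374, 2476 and 2139 in cKO cords, against 1686, 1745 and 1935 in cHET cords and 1828, 1684 and 1755 in control cords, with no overlap. It was 1.30-fold higher than in cHET (0.38 ± 0.07, adjusted p = 0.0030) and 1.32-fold higher than in control (0.41 ± 0.07, adjusted p = 0.0020). The less abundant model measured 433 to 493 in P21 cKO cords, against 352 to 407 in cHET and 351 to 503 in control cords, and 234 to 259, 244 to 266 and 178 to 296 in the same groups at P60. Its changes did not pass at either age (0.27, adjusted p = 0.079, at P21 and -0.07, adjusted p = 0.81, at P60 against cHET), though at P21 it passed without control 2 against cHET (0.27, adjusted p = 0.036) and control (0.28, adjusted p = 0.042). With the 2 models added, in an alternative chosen after the data were seen, the log2 change of Sept2 against cHET was 0.24 ± 0.06 at P21 (adjusted p = 0.011) and 0.33 ± 0.06 at P60 (adjusted p = 0.0031). Against control it was 0.18 at P21 (adjusted p = 0.041) and 0.36 at P60 (adjusted p = 0.0019).

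**Figure D2:**
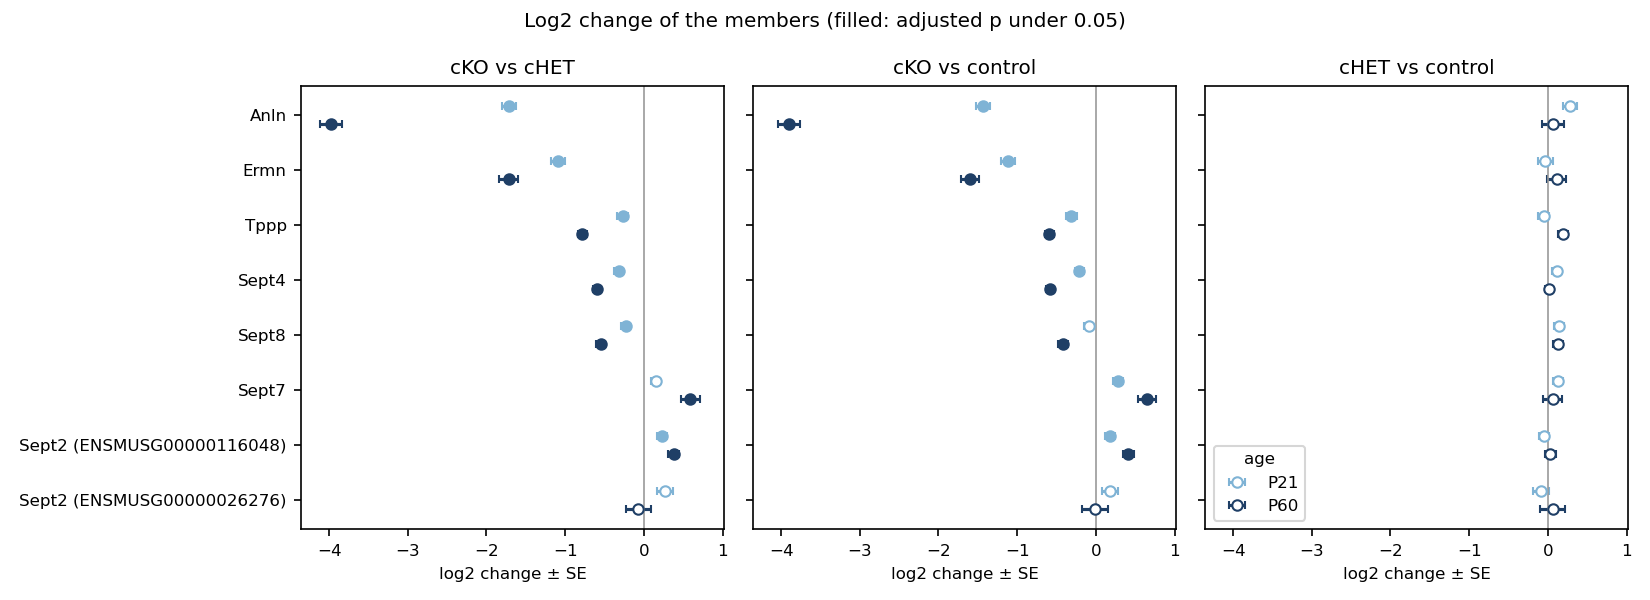
Log2 change ± SE of the 8 gene rows in cKO against cHET (left), cKO against control (middle) and cHET against control (right), at P21 (light) and P60 (dark). Filled points have an adjusted p under 0.05. Anln reaches -3.97 against cHET at P60, Sept7 lies on the opposite side of 0, and every point of cHET against control is open.

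Against control, cKO cords gave a similar order of changes, though the cKO libraries are shared with the comparison above. At P21, 4 of 8 rows fell (12.3% of all tested genes fell) and 2 rose (14.6% rose), and at P60, 5 fell (11.4%) and 2 rose (14.5%). At P21 the cKO libraries lay wholly below control for 3 rows (12.4%) and wholly above for 1 (15.0%), and at P60 for 5 (18.8%) and 2 (22.0%). The rows that changed at P60 were those that changed against cHET. The median change over the rows was -0.15 at P21 and -0.50 at P60, against -0.01 and 0.00 over all tested genes.

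Loss of 1 Tardbp allele together with Cre, as in cHET against control, gave no called change in any of the 8 rows at either age by limma. Of all tested genes, 2 were called at P21 (0.0111%) and 3 at P60 (0.0178%), and the authors' deposited table held 35 and 14 genes at q under 0.05. At an unadjusted p under 0.05 there were 2 of the 8 rows at each age, where 7.14% of all genes at P21 and 5.42% at P60 had such a p. Anln was 0.28 higher in cHET than in control on the log2 scale at P21, with an approximate 95% interval from 0.10 to 0.47 (adjusted p = 0.55). Tppp was 0.19 higher at P60, with an interval from 0.07 to 0.31 (adjusted p = 0.76). Sept8 was 0.14 higher at P21 (interval 0.03 to 0.26) and 0.13 higher at P60 (0.02 to 0.24), with adjusted p of 0.65 and 0.92. The cHET libraries lay wholly above control for Sept7 and Sept8 at P21 and for Sept8 and Tppp at P60. For this comparison the share of all genes without overlap was not computed, so these separations cannot be read as a result about the rows. Cnp, whose locus carries Cre, was 46723 ± 2131 (SD, n = 4) in P21 cHET and 84250 ± 5160 in control cords, one of the genes called there (adjusted p = 9.5e-05).

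The decreases in cKO against cHET were larger at P60 than at P21 for 4 of the 8 rows, where 1.71% of 16570 genes had a lower and 1.49% a higher effect at P60. Of 18 markers of myelin and mature oligodendrocytes, 8 were likewise called lower and 3 higher. The difference between the ages was -2.26 ± 0.17 on the log2 scale for Anln (adjusted p = 6.8e-08) and -0.52 ± 0.09 for Tppp (adjusted p = 0.0018). For Ermn it was -0.62 ± 0.15 (adjusted p = 0.026), and the call ended without P21 cHET 3 (adjusted p = 0.051) or without P60 cKO 1 (0.070), cKO 2 (0.083), cHET 2 (0.052) or cHET 3 (0.058). For Sept8 it was -0.31 ± 0.08 (adjusted p = 0.040), and removal of 1 library at a time ended the call in 13 of 21 fits. These were the fits without P21 cKO 2 (0.074), cKO 3 (0.052), cHET 1 (0.053), cHET 2 (0.063), cHET 3 (0.072), cHET 4 (0.064), control 2 (0.053) or control 4 (0.050), and without P60 cKO 1 (0.099), cKO 2 (0.086), cHET 1 (0.082), cHET 2 (0.13) or control 3 (0.050).

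Sept4 (-0.28 ± 0.08, adjusted p = 0.073) and Sept7 (0.44 ± 0.13, adjusted p = 0.080) did not pass for the difference between ages. Sept4 passed after median-of-ratios scaling (-0.29, adjusted p = 0.030) or quantile normalization (-0.31, adjusted p = 0.023). Sept7 passed without P60 cHET 3 (0.56, adjusted p = 0.0085) or P60 control 2 (0.44, adjusted p = 0.048), and without P60 cHET 3 and control 1 together (0.56, adjusted p = 0.0028). Neither Sept2 model passed (0.15, adjusted p = 0.55, for the more abundant and -0.33, adjusted p = 0.46, for the less abundant).

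At P21, where each genotype had both sexes, the difference between cKO and cHET had the same sign in females as in males for all 8 rows. Anln was at -1.55 in females and -1.86 in males, and Ermn at -1.16 and -1.02, in cKO against cHET on the log2 scale (2 libraries of each genotype per sex, not tested). Sept4 was at -0.28 in females and -0.35 in males and Sept7 at 0.10 and 0.20. Tppp was at -0.39 in females and -0.14 in males, Sept8 at -0.34 and -0.13, the more abundant Sept2 model at 0.10 and 0.37 and the less abundant one at 0.32 and 0.21.

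Because the septin subunits moved apart, their proportions within a library differed. The level of Sept4 divided by that of Sept7, both per base, was 0.827, 0.786, 0.733 and 0.904 in P21 cKO cords, against 1.08 to 1.14 in cHET and 1.06 to 1.32 in control cords. At P60 it was 0.798, 0.880 and 0.849 in cKO cords, against 2.04, 2.16 and 1.60 in cHET and 1.64, 2.41 and 1.95 in control cords. Every cKO library was below 1 and every other library above it, a description that follows from the values above. Sept8 over Sept7 was likewise lower, 0.578 to 0.658 in P21 cKO cords against 0.782 to 0.859 in cHET and 0.741 to 0.925 in control cords. At P60 it was 0.451 to 0.493 in cKO cords against 0.831 to 1.22 in cHET and 0.841 to 1.19 in control cords. Sept8 over Sept4 stayed closer between the groups, at 0.640 to 0.898 in P21 cKO cords, against 0.690 to 0.761 in cHET and 0.700 to 0.735 in control cords. At P60 this ratio was 0.560 to 0.566 in cKO cords, against 0.519 to 0.566 in cHET and 0.491 to 0.514 in control cords.

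**Figure D3:**
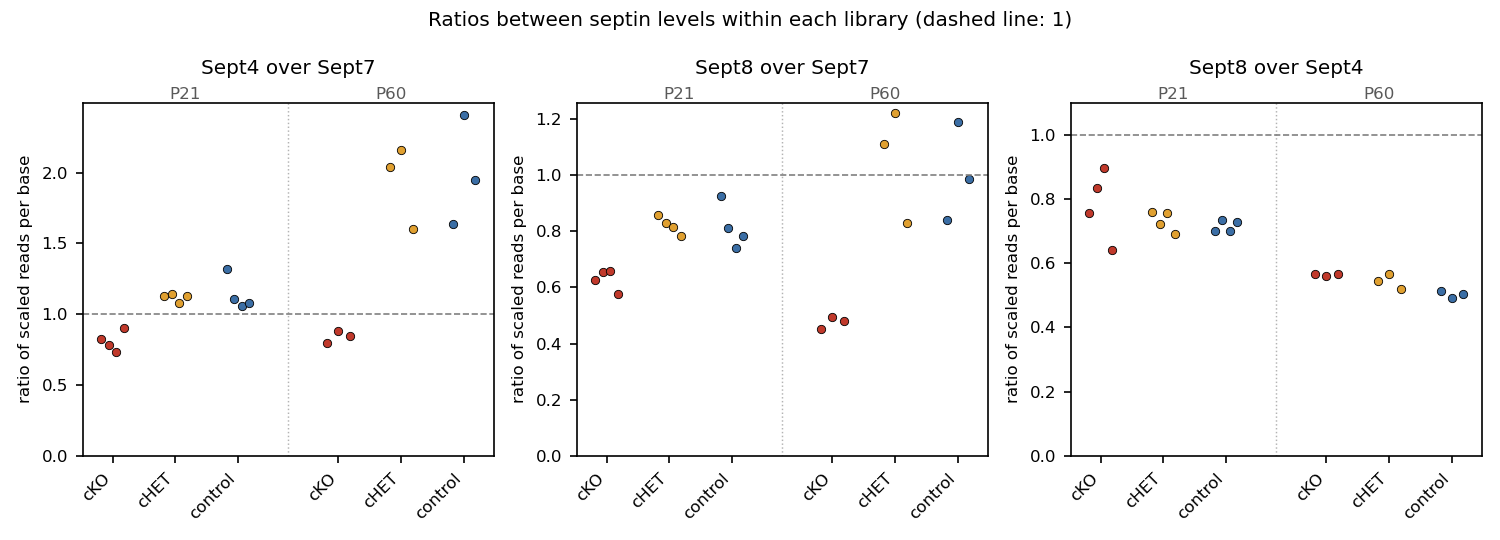
Ratios of the scaled reads per base of Sept4 to Sept7 (left), Sept8 to Sept7 (middle) and Sept8 to Sept4 (right), 1 point per library, in cKO (red), cHET (orange) and control (blue) cords at P21 and P60. The dashed line marks a ratio of 1. The cKO libraries lie at 0.904 or below for Sept4 over Sept7, and the cHET and control libraries at 1.06 or above.

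The order of levels by group mean also differed. In cKO cords Sept7 was the highest of the members at both ages, at 16413 ± 1064 (SD, n = 4) and 6618 ± 300 (SD, n = 3), and its libraries did not overlap those of Sept4, the next in order. In cHET cords Sept4 was the highest, at 16559 ± 689 and 8441 ± 105, and in control cords as well, at 15327 ± 419 and 8337 ± 431. In P21 controls the ranges of neighbours from Sept4 through Tppp and Ermn to Sept7 overlapped, and in P60 controls so did those of neighbours from Ermn through Tppp and Sept7 to Sept8. Ermn took place 6 of the 8 rows in cKO cords at both ages, level with the more abundant Sept2 model within their spread, and place 2 or 3 in cHET and control cords. Anln was the lowest row in cKO cords, below even the less abundant Sept2 model, whereas in cHET and control cords it lay above that model without overlap.

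Across the 21 libraries, with log2 values centred on their mean within each age, Sept4 and Sept8 were the closest pair of members, with a root mean square difference of 0.105. Sept8 and Tppp differed by 0.110, Sept4 and Tppp by 0.125, and Sept7 and the more abundant Sept2 model by 0.131. The other pairs of rows differed by 0.237 or more. Distances of the same kind to all 16427 named genes gave each member's nearest neighbours, as a description of libraries that share genotype groups.

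Nearest to Anln were Serpinb1a (0.211), a protease inhibitor, Tex52 (0.340) and Hapln2 (0.369), a link protein of the nodes of Ranvier. At P60 these 3 changed by -3.83, -3.73 and -3.06 in cKO against cHET. Nearest to Ermn were Hmgcs1 (0.148) and Cyp51 (0.158), both enzymes of cholesterol synthesis, with P60 changes of -1.93 and -1.58. For Hmgcs1 the per-library values are not those behind the authors' deposited table. Nearest to Tppp were Gnao1 (0.0708), a G protein alpha subunit, Cdc42bpa (0.0794), a kinase bound by CDC42, and Gid4 (0.0853).

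Sept4 lay nearest to Atp9a (0.0529), Atp1b3 (0.0626), a subunit of the sodium pump, and Apbb1 (0.0733). Sept8 lay nearest to Map4 (0.0594), a microtubule-associated protein, Epn2 (0.0667), an endocytic adaptor, and Phlpp1 (0.0770), a phosphatase. The subunits that rose had other neighbours. Sept7 lay nearest to Tmem167 (0.0941), Vps37a (0.106), a subunit of the ESCRT-I complex, and Katnbl1 (0.106), and the more abundant Sept2 model to Vps37a (0.0532), Gnai3 (0.0679), a G protein alpha subunit, and Ctnnb1 (0.0712), which encodes beta-catenin. The less abundant Sept2 model lay nearest to Abi1 (0.0919), Usp20 (0.133) and Kat6b (0.140), against its own root mean square deviation of 0.182 from the age means.

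Among the other septins, Sept6 and Sept9 were called. Of 6 tested at P21, 1 fell and 0 rose in cKO against cHET, and of 5 tested at P60, 1 fell and 1 rose. Of all tested genes, 9.97% fell and 12.6% rose at P21, and 11.5% fell and 13.4% rose at P60. These shares are the background for this list and those that follow. Counts of 1 in lists this short were not tested against them. Sept6, of the same group as Sept8, ranged from 2412 to 2625 in P21 cKO cords and from 2801 to 3034 in cHET cords (-0.20 ± 0.05, adjusted p = 0.012), and it fell again at P60 (-0.25 ± 0.06, adjusted p = 0.015). Sept9, a septin of the SEPT3 group, was 0.31 ± 0.08 higher at P60 (adjusted p = 0.017), but was at -0.07 at P21 (adjusted p = 0.51). The medians were 0.13 at P21 and -0.01 at P60, against -0.01 and 0.00 over all tested genes. Sept3 and Sept5 were not analysed here.

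CDC42, a small GTPase, and its Borg effectors control septin assembly. Of 4 tested genes of this kind 1 fell and 0 rose at P21, and of 3 at P60, 1 fell and 1 rose, with medians of -0.01 and -0.04. The shares and medians over all genes are those given for the other septins. Cdc42ep2, which encodes the effector BORG1, ranged from 1172 to 1451 in P21 cKO cords against 2208 to 2510 in cHET cords, and from 288 to 361 in P60 cKO cords against 636 to 702 in cHET cords. Its log2 change was -0.89 ± 0.08 (P21, adjusted p = 8.6e-07) and -1.06 ± 0.10 (P60, adjusted p = 2.3e-05). Cdc42 rose by 0.26 ± 0.06 at P60 (adjusted p = 0.013). Cdc42ep1 and Cdc42ep3 were not analysed here.

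Anillin is shared with the machinery of cell division, and of the other cytokinesis genes tested Cit fell, at P60. Of 10 tested, 0 fell and 5 rose at P21 in cKO against cHET, with a median of 0.49, and at P60, 1 fell and 1 rose, with a median of 0.43. At P21 the mitotic kinases Aurkb and Plk1 rose by 1.36 ± 0.41 (adjusted p = 0.028) and 0.89 ± 0.26 (adjusted p = 0.026), and the mitotic kinesins Kif23 and Kif20a by 0.71 ± 0.21 (adjusted p = 0.024) and 0.61 ± 0.15 (adjusted p = 0.0078). Kif23, a subunit of centralspindlin, ranged from 21.1 to 47.0 in P60 cKO cords against 9.4 to 17.4 in cHET cords (1.15 ± 0.36, adjusted p = 0.041). Cit, a kinase that binds anillin, fell at P60 (-0.31 ± 0.06, adjusted p = 0.0026) and is also expressed in neurons.

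Of 8 proliferation genes tested at P21 5 rose and 0 fell, and of 7 at P60 6 rose and 0 fell, with medians of 0.86 and 1.44. Their summed level was 920 to 2146 in P21 cKO cords, against 753 to 1035 in cHET and 681 to 823 in control cords, and 427 to 631 in P60 cKO cords, against 189 to 249 in cHET and 190 to 199 in control cords. Mki67, their defining gene, ranged from 195 to 594 in P21 cKO cords against 143 to 341 in cHET cords, where it did not pass (0.89, adjusted p = 0.059). At P60 it ranged from 114 to 196 in cKO cords against 19.7 to 60.4 in cHET cords (1.92, adjusted p = 0.0031). The part of dividing cells in the level of Anln was not tested.

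Actin genes moved both ways. Of 20 tested 3 fell and 8 rose at P21, and 3 fell and 9 rose at P60, in cKO against cHET, with medians of 0.03 and 0.21. Gsn, which encodes the actin-severing protein gelsolin, ranged from 5595 to 6943 in P21 cKO cords against 16406 to 19330 in cHET cords. Its log2 change was -1.57 ± 0.08 (P21, adjusted p = 4.4e-09) and -1.15 ± 0.09 (P60, adjusted p = 3.1e-06). Cttnbp2, which binds cortactin, fell at both ages (-0.32 and -0.59), Rock2, a kinase downstream of RhoA, at P21 (-0.26), and Fscn1, which bundles actin, at P60 (-0.42). Among those that rose, Anxa2, a membrane-binding annexin, was at 0.85 and 1.17, the membrane-to-actin linkers Msn at 0.88 and 0.95 and Ezr at 0.92 and 0.84, and the kinase Fyn at 0.36 and 0.48.

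Microtubule genes fell more than they rose. Of 17 tested 8 fell and 1 rose at P21, and 10 fell and 1 rose at P60, with medians of -0.22 and -0.40. Stmn4, a stathmin that binds tubulin, ranged from 1651 to 2258 in P21 cKO cords against 3719 to 4365 in cHET cords, and from 435 to 507 in P60 cKO cords against 1617 to 1805 in cHET cords. Its log2 change was -1.09 ± 0.08 (P21, adjusted p = 2.2e-07) and -1.86 ± 0.07 (P60, adjusted p = 3.6e-08). Stmn1, another stathmin, was at -0.61 and -1.41, Map7, which recruits kinesin to microtubules, at -0.33 and -1.41, and Tubb4a, the main beta-tubulin of oligodendrocytes, at -0.46 and -0.92, all called at both ages. Sirt2, a tubulin deacetylase of myelin, rose at both ages (0.56 ± 0.08, adjusted p = 0.00012, and 0.77 ± 0.06, adjusted p = 4.3e-06).

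As for the members, the difference between ages was called downward for 5 of the 17 microtubule genes, which were Map7 (-1.07, adjusted p = 0.00032), Stmn1 (-0.80, adjusted p = 0.00016), Stmn4 (-0.77, adjusted p = 0.00033), Tubb4a (-0.45, adjusted p = 0.0054) and Map4 (-0.29, adjusted p = 0.023). It was also called downward for 8 of 18 markers of myelin and mature oligodendrocytes and upward for 3, with a median of -0.37. A lower effect at P60 was thus not particular to cytoskeletal genes. Tuba1a was not analysed here. Map1b and Ndrg1 of this list and Racgap1 of the cytokinesis list were not called, and their per-library values are not those behind the authors' deposited table.

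**Figure D4:**
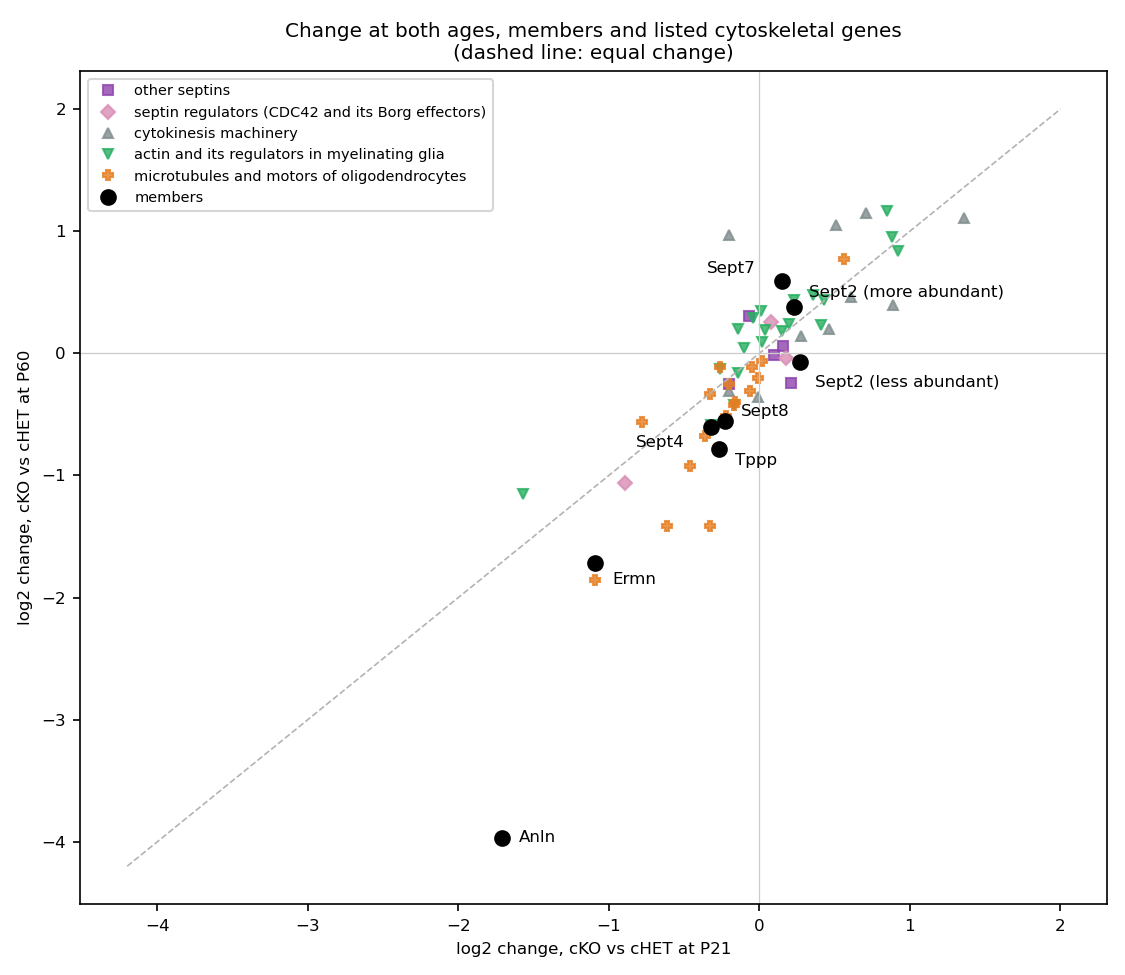
Log2 change in cKO against cHET at P21 (horizontal) and P60 (vertical), for the 8 member rows (black) and for the other septins, septin regulators, cytokinesis, actin and microtubule genes tested at both ages (colours). The dashed line marks equal change, and Sept2 (more abundant) and (less abundant) are its 2 gene models. Anln lies furthest below the line, at -1.71 and -3.97.

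Cell type markers moved with these genes in cKO against cHET. Beside the counts below, 9.97% of all tested genes fell and 12.6% rose at P21, and 11.5% fell and 13.4% rose at P60. Of 18 markers of myelin and mature oligodendrocytes, 12 fell and 4 rose at P21 and 15 fell and 3 rose at P60, with medians of -0.47 and -0.67. Their summed level was 1865759 to 2197324 in P21 cKO cords, against 2468834 to 2756533 in cHET and 2201647 to 2514885 in control cords, and 324902 to 383608 in P60 cKO cords, against 539456 to 621425 in cHET and 448886 to 501523 in control cords. Mbp made up most of this sum at P60, with means of 227395 in cKO and 359088 in cHET cords. Opalin, a myelin gene, was at 1.51 at P60, against the direction of the list. Against the median of these markers at P60, Anln, Ermn and Tppp changed by more and Sept4 and Sept8 by less. Sept7 and the more abundant Sept2 model changed in the other direction. Against the P21 median of -0.47, Anln and Ermn changed by more, and Tppp (-0.27), Sept4 (-0.32) and Sept8 (-0.23) by less. None of these was tested as a difference.

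Markers of newly formed oligodendrocytes rose for 5 of 8 and fell for 2 at P21, and rose for 6 and fell for 2 at P60. Gpr17 was at 5791 to 6414 in P60 cKO cords against 1417 to 1775 in cHET cords. Bcas1 (-0.94) and Enpp6 (-0.39) were those that fell at P60. Of 8 precursor markers 6 rose at P21 and 7 at P60, and none fell. Pdgfra, which defines them, ranged from 785 to 1187 in P21 cKO cords against 658 to 911 in cHET cords, where it did not pass (0.32, adjusted p = 0.091). At P60 it ranged from 311 to 339 in cKO cords against 207 to 260 in cHET cords (0.47, adjusted p = 0.0058). Summed levels of the newly formed list were 12617 to 13319 in P60 cKO cords, against 10934 to 11144 in cHET and 8176 to 9005 in control cords, and those of the precursor list 13647 to 16221, 9341 to 9800 and 9664 to 10221 in the same groups.

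Of 8 microglial markers 6 rose at each age, while 1 fell at P21 and 2 at P60. Csf1r ranged from 4802 to 5929 in P60 cKO cords against 1979 to 2079 in cHET cords. Those that fell at P60 were Tmem119 (-1.76) and P2ry12 (-1.15). Of 8 astrocyte markers 6 rose at P21 and 4 at P60 and none fell, with Gfap at 86376 to 110566 in P60 cKO cords against 32442 to 38712 in cHET cords. Of 8 neuronal markers 7 fell at P21 and 5 at P60 and none rose. Summed microglial levels were 16748 to 22792 in P60 cKO cords, against 5302 to 5547 in cHET and 4565 to 5495 in control cords, and summed astrocyte levels 132201 to 159381, 66708 to 73044 and 64275 to 67524. Gfap made up most of the astrocyte sum in cKO cords, with a P60 mean of 100292 against 35179 in cHET cords. Slc1a2, Aldoc, Gja1 and Aldh1l1 were not called at P60 against cHET, so the sum does not describe all astrocyte markers. Summed neuronal levels were 94323 to 109789 in P60 cKO cords, against 101949 to 107018 in cHET and 105041 to 110972 in control cords. At P21 they were 167720 to 193637 in cKO cords, wholly below cHET (205064 to 216241) and control cords (195568 to 233292). Sept2, Sept7 and many actin genes are also expressed outside oligodendrocytes, and the part of these cell types in their changes was not tested.

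Of 8 Schwann cell markers, which peripheral nerve roots would bring, 3 rose and 1 fell at each age. The summed level of the list was 2608 to 2774 in P60 cKO cords, against 1975 to 3238 in cHET and 1746 to 1862 in control cords. The part of nerve roots in the members' values was not tested.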

How the data were processed

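Spinal cord RNA was sequenced in 21 mice. Per the submitters' processing notes, kallisto 0.43.0 and sleuth 0.28.1 were used on GRCm38, with the annotation release not given in the sources used here. The authors deposited a signal per gene and library, normalized scaled reads per base, scaled within each age. Their deposited tables give, per the file headers, an effect in natural log units with its standard error, a p-value and a q-value for each gene. Effects were converted to log2. For all 8 member rows the mean of the per-library values equals that of the authors' table within 1e-06, with the more abundant Sept2 model listed there under a second identifier.

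Names and positions came from GENCODE M21 on GRCm38, with 24877 of 25127 identifiers named. Values were taken to log2(value + 0.5), so that folds of low genes are understated. Genes with a value of 5 or more in 4 libraries (P21) or 3 libraries (P60) were tested. One limma 3.58.1 model (trend, R 4.3.3) per age held all 3 genotypes, with 2-sided tests, Benjamini-Hochberg adjustment over all tested genes and a threshold of 0.05. The age difference is the P60 minus the P21 effect in a fit of all 6 groups. SDs are of deposited values.

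The members, the 5 pathway lists, the 8 marker lists and the tests were chosen with earlier results of these data known. Named list genes are up to 4 that rose and 4 that fell by size among those called in cKO against cHET at either age, and nearest genes are the 3 with the smallest distance, and some genes these rules name are not reported here. Other settings tried were pseudocounts of 5 and 0.05, testing without a filter or above a mean of 50, 2 other scalings, other fits, sex as a covariate at P21, the authors' test and leaving out each library. Protein sequences were not used here.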

Additional observations from a re-analysis of the deposited data

Results flagged for a closer look

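For 2 of the 24 groups of 4 libraries of a gene row at P21, a single library stood apart from the other 3 by Dixon's ratio, which chance does in about 1 of 20 groups. Sept4 measured 15163 in cKO 4, above the other cKO libraries. Without that library the log2 change of Sept4 in cKO against cHET stayed negative and called, as it did in every fit without 1 library, between -0.38 and -0.29. Sept8 measured 10415 in control 3, below the other controls.

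The effect of cKO against cHET differed between P21 and P60 for 4 genes. The difference, P60 minus P21 on the log2 scale, was -2.26 for Anln, -0.62 for Ermn, -0.31 for Sept8 and -0.52 for Tppp, with adjusted p of 6.8e-08, 0.026, 0.040 and 0.0018 (limma). The P21 and P60 libraries were made with different kits, and cKO and cHET held both sexes at P21 but only males at P60. The fit held no term for sex, so kit, sex and age cannot be told apart in this difference.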

How the results depend on the processing

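The member results were recomputed under each alternative. A change of sign was counted as a reversal only where a fit called the change, so uncalled changes could differ in sign. For example, the less abundant Sept2 model in cHET against control at P60 ran from -0.17 to 0.19 without 1 library. By that count 1163 kept their side of the threshold, 37 lost their call, 9 gained one and 0 reversed. Those that changed are given beside their results, except that the more abundant Sept2 model lost its P21 call against control also without the filter (adjusted p = 0.070), with median-of-ratios scaling (0.055), with only 2 groups fitted (0.076) or with sex as a covariate (0.051), and Sept8 its age difference without the filter (0.057). No member call of cKO against cHET or control at P60 changed under any alternative run. The number of member rows with a called age difference, 4, was 2 to 5 when 1 library was left out, with 2 without P21 cHET 3, P60 cKO 1, P60 cKO 2 or P60 cHET 2. The number of all genes called in cHET against control at P21, 2, became 1 without the filter, with quantile normalization or with sex as a covariate, and 35 in the authors' deposited test, and ranged from 1 to 26 without 1 library (26 without cHET 4). At P60 that number, 3, was 14 in the authors' test and 1 to 4 without 1 library. No paired analysis was possible because replicate numbers were given in accession order and name separate mice. The depth in reads is unknown, so counting error of low values, such as Anln in P60 cKO cords, cannot be given. The split of reads between the Sept2 models is uncertain.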
